A study of Bos taurus with 15 samples.

Results

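Bovine endometrial epithelial cells with morulae lying on them (contact, 5 libraries) were compared by RNA sequencing with the same cells cultured alone (control, 5 libraries). The libraries were taken by their column labels, and all genes with a normalized read count of at least 10 in at least 5 of the 15 libraries of the series were tested, which kept 12559 of 19994 genes. The cells came from the scraped endometrium of 4 beef cow (Bos taurus) uteri, pooled into a single frozen stock and used at passage 3, at 90% confluence. Contact wells held 15 ± 1 in vitro produced morulae of day 5.5, placed straight on the monolayer, while control wells held no embryo. The culture lasted 48 h in 150 µL of SOF medium with 5% FBS under 5% CO2 in 96-well plates, and every well, control wells included, also carried a transwell insert. The remaining 5 libraries of the series (no contact) had the same morulae inside the insert, and they are used here only for the shared estimate of spread and for levels set beside the others. All cultures come from that stock, so that spread between cultures, not spread between cows, is what the p-values rest on.

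Type I interferons bind a receptor made of IFNAR1 and IFNAR2, whose kinases JAK1 and TYK2 activate STAT proteins, STAT2 among them. These join IRF9, enter the nucleus and switch on a large set of interferon-stimulated genes, among them antiviral effectors, RNA sensors and the genes that later damp the signal. Interferon tau, made by the trophectoderm of ruminant embryos, is the interferon that signals pregnancy to the uterus and acts through the same receptor. In cattle its targets in the endometrium include ISG15, MX1 and the OAS genes.

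Control libraries held 15507719 to 18618467 assigned reads. Contact libraries 28, 87 and 107 held 16670801 to 19268029, while contact libraries 97 and 108 held only 4195091 and 6104652. The library numbers of the sample titles form runs: 24 to 30, 83 to 90, the single 97, and a last one from BEEC.103 upward. Contact and control libraries occur together in 3 of these runs, and contact library 97 has no control in its own. Values below are normalized read counts, given in the order control 24, 83, 84, BEEC.103 and BEEC.104, then contact 28, 87, 97, 107 and 108. The labelled cell type was in part borne out by its markers. KRT8, a keratin of simple epithelia, stood at 29337 to 39121 and CDH1, the epithelial cadherin, at 1133 to 1698. EPCAM, an adhesion molecule of most epithelia, did not exceed 3.36 and GRHL2, an epithelial transcription factor, was listed at 0 in all 10 libraries. A 0 in every library need not mean absent RNA, which was not tested. It was listed for 3511 of the 19994 genes, among them PSMC4 of the constitutive proteasome. Stromal genes were abundant, with COL1A1 at 82924 to 116621 and VIM at 13556 to 18942. Below the filter lay 6 of the 17 epithelium markers, against 1 of the 16 stroma and fibroblast markers. The 16 stroma and fibroblast markers held 2.56% ± 0.0576 of control reads and 2.62% ± 0.122 of contact reads (SD, n = 5 each), and the 17 epithelium markers 0.409% ± 0.0344 and 0.413% ± 0.0387. Whether fewer cells of a type or less RNA per cell lies behind a level cannot be told apart in bulk RNA.

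In contact 901 genes were higher and 726 lower than in control, which is 7.17% and 5.78% of the genes tested (limma on log2(count + 1), Benjamini-Hochberg adjusted p under 0.05 over all genes). Counts of called list members below are to be read against these 2 shares. Control wells held no embryo, so touch and the presence of morulae cannot be told apart in this comparison. Most changes were small, with a median log2 fold change of 0.49 among the higher genes and -0.41 among the lower ones. The large changes lay on the upward side: 175 genes rose by more than 2-fold, 81 by more than 4-fold, 55 by more than 8-fold and 13 by more than 128-fold. Downward, 46 genes fell by more than 2-fold, 3 by more than 4-fold and none by more than 8-fold. Of those 46, 31 had a control mean under 50, as had 12.5% of all genes tested. Complete separation, with all 5 contact libraries above all 5 controls, was seen for 936 genes (7.45% of those tested) and the reverse for 774 (6.16%). Among called genes, 727 of the 901 higher and 530 of the 726 lower ones were separated in this way. All 175 genes that rose more than 2-fold, and 33 of the 46 that fell more than 2-fold, kept their call whichever of the 10 libraries was left out. Of the 55 genes that rose more than 8-fold, 29 had a control mean under 50, a level below which 12.5% of all genes tested lay. That contrast is partly built in. The filter keeps genes low in control that are high elsewhere, and a low control value makes a large fold easier to reach.

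**Figure D1:**
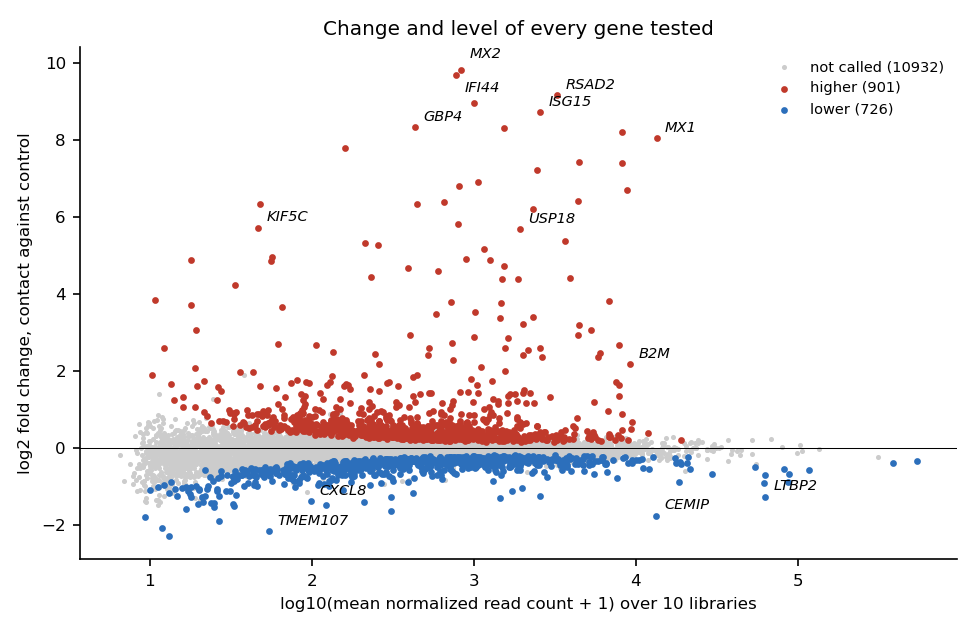
Change against level for all 12559 genes tested. The horizontal axis is log10 of the mean normalized read count plus 1 over the 10 libraries, the vertical axis the log2 fold change of contact against control, and each point is 1 gene, coloured by call (901 higher, 726 lower). The red points reach a log2 fold change of 9.81 at MX2, and the blue points -2.27 at CH25H.

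The interferon genes themselves gave little signal. Of 11 interferon genes listed, 8 were at 0 in every library and only IFNT, an interferon tau gene, passed the filter on low values. Such a 0 need not mean absent RNA. IFNT stood at 31.8, 33.9, 18.8, 57.9 and 71.4 in control and at 32.1, 36.3, 43.7, 89.3 and 37.7 in contact. The groups overlapped, and its log2 fold change of 0.20 ± 0.35 (SE) had an adjusted p of 0.769 in limma. Reads on interferon tau genes and their close copies cannot be placed with certainty, because the multigene family is nearly identical in sequence.

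The receptor end of the pathway did not rise. None of the 9 receptor and kinase genes was higher by limma, none at an unadjusted p under 0.05, and none by edgeR or DESeq2. IFNAR1, the signal-passing receptor chain, fell by 0.50 on the log2 scale (SE 0.12, adjusted p = 0.00737), from 1296, 1073, 1165, 1201 and 1189.8 to 846, 710.0, 884, 837 and 915. Every contact library lay below every control. IFNAR2, JAK1 and TYK2 had log2 fold changes of -0.16, -0.05 and -0.19 and did not pass the test.

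The transcription factors that carry the signal rose unequally. Of 15 tested, 7 were higher and 1 lower. IRF9, the DNA-binding part of the complex, went from 411, 363, 396, 391 and 388 to 3137, 3122, 2756, 2682 and 2623, a log2 fold change of 2.87 ± 0.08 with an adjusted p of 2.29e-17. Its levels with morulae held in the insert, 2317 to 3133, covered most of the contact range. STAT2, its partner, rose from 739 to 769.6 in control to 1385 to 1935 in contact (log2 fold change 1.03 ± 0.07). The higher members also included BATF2 (1.98), IRF1 (1.49), which opens antigen presentation genes, IRF3 (0.78), which acts downstream of nucleic acid sensors, and IRF2 (0.44). IRF7, the amplifier of interferon production, was listed at 0 in all 10 libraries, which need not mean absent RNA. IRF2BP2, a corepressor, was the lower member (-0.27), and its call was lost without contact library 87 or 97 or without control library 24, 83 or BEEC.103.

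**Figure D2:**
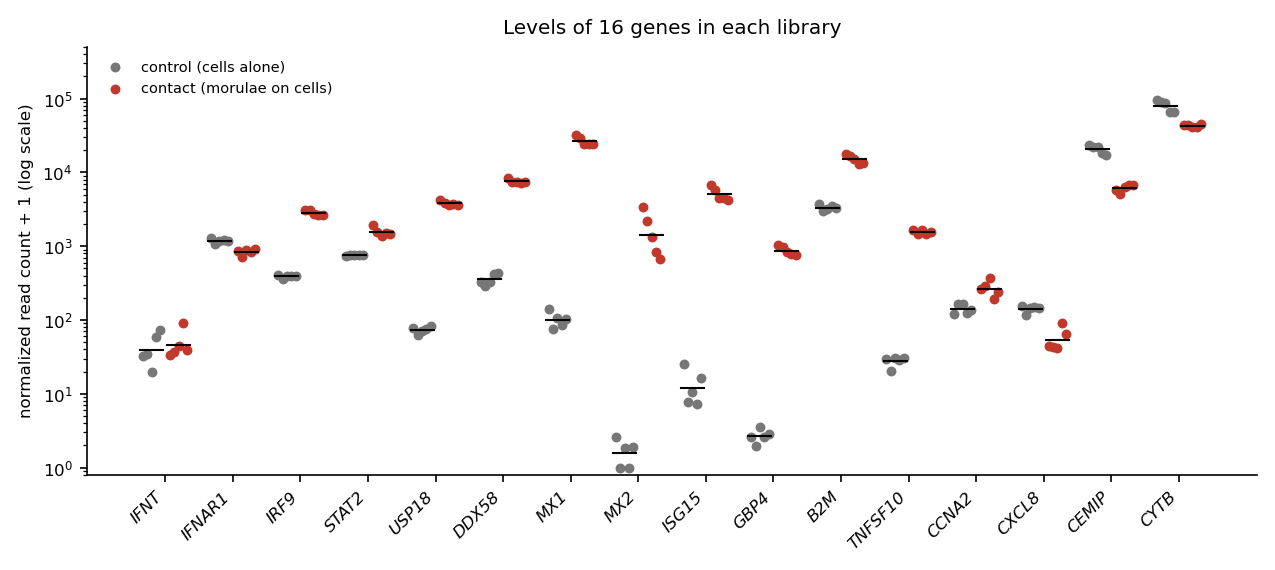
Normalized read count plus 1 (vertical axis, log scale) of 16 genes in each of the 5 control libraries (grey) and 5 contact libraries (red). Bars mark the geometric mean of count plus 1; the groups of MX2 stand furthest apart, at 0 to 1.63 and 669.8 to 3381, while those of IFNT overlap.

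Genes listed as brakes on interferon signalling were split between those that rose and those that did not. Of 15 tested, 6 rose and none fell by limma, with 1 lower at an unadjusted p under 0.05 and none lower by edgeR or DESeq2. USP18, which blocks the receptor and strips ISG15 from proteins, went from 75.7, 61, 70.1, 75.2 and 83.1 to 4252, 3883, 3589, 3726 and 3568 (log2 fold change 5.69 ± 0.08, adjusted p = 4.95e-22). SAMD9 (5.19), TRIM21 (2.72), a ubiquitin ligase that binds antibodies, NLRC5 (1.56) and PIAS1 (0.23) also rose, the last with an adjusted p of 0.0737 without the shallow libraries. Not every riser need be a brake: NLRC5 is also counted in the MHC class I list, and a braking role of SAMD9 was not tested. SOCS1, the classical kinase inhibitor, had a log2 fold change of 0.63 with an adjusted p of 0.0463. That call was lost without contact library 28, 87 or 108 or control library 83, 84, BEEC.103 or BEEC.104, with adjusted p up to 0.123. SOCS3, its relative, had a log2 fold change of -0.18 and did not pass (adjusted p = 0.658).

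Sensors of foreign RNA and DNA rose in 8 of 11 tested genes, with none lower by limma, edgeR or DESeq2 or at an unadjusted p under 0.05 and a list median of 2.51, against -0.01 over all genes. ZBP1, which recognises Z-form nucleic acid, went from 17.9, 3.87, 10.3, 8.61 and 7.23 to 3897, 3125, 2719, 2927 and 2745 (log2 fold change 8.31 ± 0.26, adjusted p = 7.62e-13). The cytosolic RNA helicases DHX58, IFIH1 and DDX58 (LGP2, MDA5 and RIG-I) had log2 fold changes of 4.88, 4.74 and 4.41. EIF2AK2, the kinase PKR that halts translation on double-stranded RNA, rose by 3.07, and CGAS, the DNA sensor, by 2.50. The endosomal receptor TLR3 rose by only 0.70, from 213 to 259 in control to 361 to 396 in contact. MAVS and TMEM173 (STING), the adaptors that the sensors signal through, did not pass the test.

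Antiviral effectors rose in nearly all cases. Higher levels were found for 30 of 31 tested genes, at a median log2 fold change of 4.93, against 7.17% of all genes tested. None was lower by limma, edgeR or DESeq2 or at an unadjusted p under 0.05. The count and median are partly built in. Members such as MX2 and IFI44 passed the filter only through libraries with morulae, as did ZBP1, ISG15 and GBP4 of other lists. The 4 listed effectors below the filter were left out, and the lists were chosen with earlier results of these data known. MX1, a GTPase that traps viral nucleocapsids, went from 138, 75.6, 104.3, 85.3 and 101 to 31744, 29279, 24357, 24559 and 24132 (log2 fold change 8.06 ± 0.13, adjusted p = 1.18e-19). MX2, its paralog, went from 1.63, 0, 0.855, 0 and 0.903 to 3381, 2194, 1314, 836 and 669.8, a log2 fold change of 9.81 ± 0.50. Contact library 28 was highest and 108 lowest for MX2, and all contact libraries were above the 17 to 85.4 measured with morulae in the insert.

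RSAD2 (viperin), which makes a chain-terminating nucleotide, went from 18.7, 5.81, 16.2, 5.48 and 9.94 to 9851, 6801, 5226, 5321 and 5549 (9.17 ± 0.32). IFI6 and IFI27, small mitochondrial proteins, rose by 8.20 and 6.70. IFI44 rose from at most 2.71 to 1250.0 to 1953 (9.69 ± 0.33). IFIT1, which binds foreign RNA ends, rose from 75.9 to 118 up to 15092 to 20072 (7.40 ± 0.12). OAS1X and OAS1Y, which make a messenger that sets off RNA decay, rose by 7.44 and 6.42, with the caution that their reads may be split between near-identical copies. ISG20, an exonuclease, was the effector that missed the threshold (0.57, adjusted p = 0.0852).

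The ISG15 conjugation system rose from carrier to ligase. ISG15, the ubiquitin-like modifier, went from 24.4, 6.78, 9.41, 6.26 and 15.4 to 6831, 5707, 4429, 4527 and 4249.9 (log2 fold change 8.73 ± 0.30, adjusted p = 1.18e-11). Its activating enzyme UBA7 rose by 5.38, its conjugating enzyme UBE2L6 by 1.89 and its ligases HERC5 and HERC6 by 2.88 and 1.35, so that 6 of 7 tested genes were higher. HERC3, a relative without that role, had 0.06. Among 8 PARP enzymes and partners, PARP9, DTX3L, PARP14, PARP12 and PARP10 rose by 4.41, 4.39, 3.41, 3.23 and 2.56, and PARP4 fell by 0.26. The PARP4 call was lost in 2 of the 10 fits with a library left out. GBP4, a guanylate-binding GTPase, went from 1.63, 0.969, 2.57, 1.57 and 1.81 to 1026, 967, 827, 775 and 752 (8.34 ± 0.15), and GBP1 rose by 3.48. Of 25 TRIM ligases, 7 rose, led by TRIM21 and TRIM34 (2.62), and TRIM8 fell by 0.46. Over all genes tested 7.17% were higher and 5.78% lower.

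Summed over the 48 tested genes of the effector, ISG15, PARP and GBP lists, the set took 0.133%, 0.135%, 0.1374%, 0.1375% and 0.1434% of control reads. In contact it took 1.759%, 1.642%, 1.472%, 1.43% and 1.404%. The share was thus 11.2 times as high, at 1.54% ± 0.153 against 0.137% ± 0.00393 (SD, n = 5 each; exact two-sided permutation test, p = 0.00794, the smallest that 5 against 5 can give, and 0.00794 after adjustment over the 2 shares tested). The lists were chosen with earlier results of these data known. Members such as MX2 and IFI44 (control at most 1.63 and 2.71) passed the filter only through libraries with morulae. The p-value is therefore no independent support. Within the runs from 24, 83 and BEEC.103 upward the share was higher by 1.63, 1.51 and 1.28 percentage points. The 5 largest contributors, MX1, IFI27, IFI6, IFIT1 and IFITM3, held 40.9% of the set. Contact library 28 had the highest level for 40 of the 48 genes, and contact library 108, one of the shallow ones, had the lowest for 26. With morulae in the insert the share was 0.722% to 0.902%, between the other groups and overlapping neither.

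**Figure D3:**
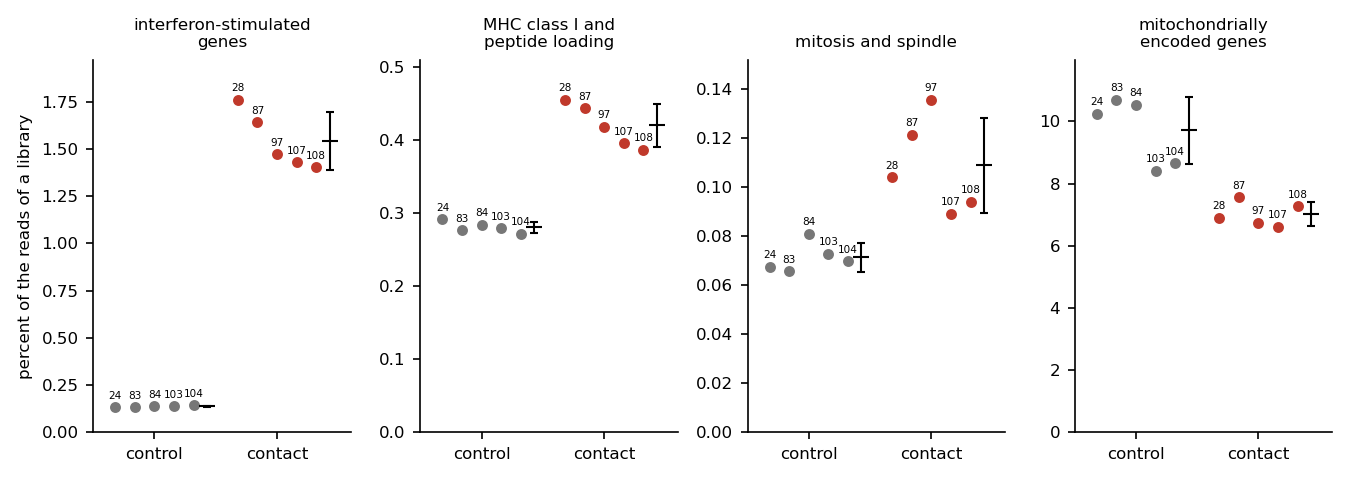
Percent of each library's reads on 4 gene sets (vertical axes, from 0), with 1 point per library, labelled with its number, and the mean ± SD beside each group of 5. All contact libraries lie above all controls for interferon-stimulated genes, MHC class I and mitosis genes, and below them for the mitochondrially encoded genes.

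Antigen presentation through MHC class I rose in 10 of 14 tested genes, none was lower by limma, edgeR or DESeq2 (1 at an unadjusted p under 0.05), and the median log2 fold change was 1.08. B2M, the shared light chain, went from 3731, 3011, 3139.9, 3463 and 3261 to 17998, 16813, 15106, 13095 and 13219 (2.19 ± 0.09, adjusted p = 6.6e-14). The heavy chains JSP.1, BOLA and BOLA-NC1 rose by 1.64, 1.42 and 1.21, with the reservation that class I genes are polymorphic and share sequence. TAP1, the peptide pump, rose by 1.40, the trimming enzymes ERAP1 and ERAP2 by 0.95 and 1.46, and the loading factors TAPBP and TAPBPL by 0.57 and 0.68. CALR, CANX and PDIA3, general chaperones that also serve loading, had 0.02, 0.14 and 0.07 and did not pass.

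All 5 immunoproteasome genes rose, by 1.01 for PSMB10 to 1.69 for PSMB9. Among 32 genes of the constitutive proteasome 6 rose (18.75%, against 7.17% of all genes tested) and the median was 0.12. The exception in size was PSMA2, a core alpha subunit, which went from 809 to 891 in control to 1450.4 to 1897 in contact (0.95 ± 0.08, adjusted p = 5.61e-09). None of the constitutive genes was lower by limma, edgeR or DESeq2 or at an unadjusted p under 0.05. Of 4 MHC class II genes tested, BOLA-DMB, a peptide exchange chain, rose by 1.69, from 25.3 to 42.3 up to 89.6 to 145.

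Genes of cell death rose in 8 of 24 cases and 1 was lower, against 7.17% higher and 5.78% lower over all genes tested. XAF1, which antagonises an inhibitor of caspases, went from 15.5, 17.4, 16.2, 10.2 and 9.03 to 1757, 1723, 1573, 1526 and 1450.4 (6.81 ± 0.16). TNFSF10 (TRAIL), a ligand of death receptors, went from 28.5, 19.4, 29.1, 27.4 and 29.8 to 1671, 1483, 1674, 1475 and 1545 (5.83 ± 0.14, adjusted p = 7.59e-18). The caspases CASP4 and CASP8 rose by 1.42 and 1.02, and the membrane-rupturing executors MLKL and GSDMD by 0.80 and 0.71. BCL2L1, a survival factor, fell by 0.23, a call that was lost in 6 of the 10 fits with a library left out.

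**Figure D4:**
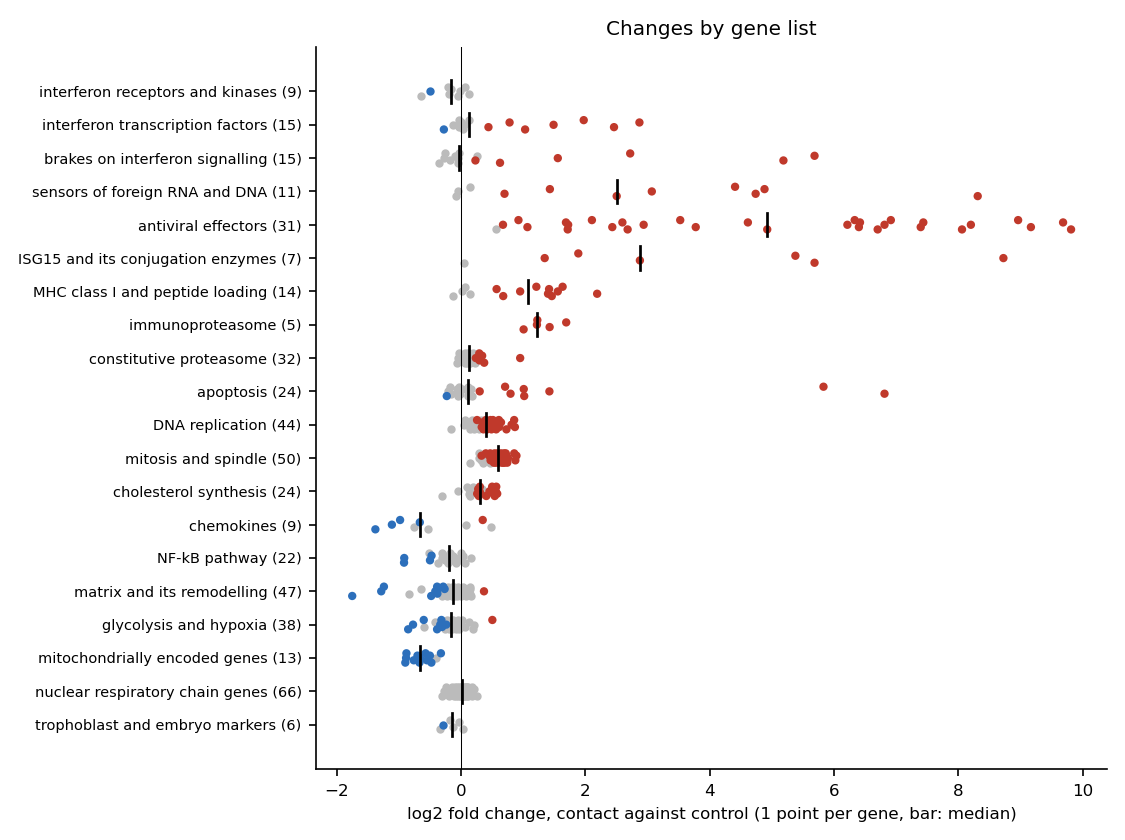
Log2 fold change of every tested member of 20 gene lists (number of members in brackets), red where called higher, blue where called lower, grey otherwise, with a bar at each list's median. Sensors, effectors and ISG15 genes spread to the far right, mitosis genes form a compact group near 0.60, and mitochondrially encoded genes one near -0.66.

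A compact rise was seen in genes of cell division. Of 50 genes of mitosis and the spindle, 39 were higher, none was lower by limma, edgeR or DESeq2 or at an unadjusted p under 0.05, and all 50 had a positive log2 fold change, with a median of 0.60. CCNA2, the cyclin of S phase and early mitosis, went from 121, 165, 166, 124 and 136 to 258, 289, 373, 189.6 and 238 (0.89 ± 0.15, adjusted p = 0.000296). TOP2A, the topoisomerase that untangles chromosomes, went from 367 to 492 up to 532 to 924 (0.71 ± 0.11). Contact library 97 was highest for both, and contact library 107 lowest. The list's share of reads was 0.0714% ± 0.00598 in control, 0.109% ± 0.0194 in contact and 0.0694% ± 0.00591 with morulae in the insert. Without libraries 97 and 108 the number of higher genes was 33.

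DNA replication followed with 23 of 44 genes higher and none lower by limma, edgeR or DESeq2 (1 at an unadjusted p under 0.05). The count was 15 without the shallow libraries 97 and 108. GINS4, RRM2, which supplies deoxynucleotides, CLSPN and the helicase subunit MCM3 rose by 0.87, 0.86, 0.81 and 0.61. Of 25 genes of G1, E2F and their brakes 6 rose, led by the repressor E2F8 (1.14, from 44.6 to 74.1 up to 74.7 to 192). That count dropped to 3 without contact library 28 or 87 or control library BEEC.103 or BEEC.104, and to 2 without 97 and 108. CDKN1A (p21), which arrests cells before S phase, fell by 0.66 on the log2 scale, from 6548, 6779, 6435, 6974 and 7059 to 3708, 4250.3, 4019, 4660.3 and 4816 (SE 0.08, adjusted p = 1.96e-06). In a list of 22 genes of growth arrest and the response to DNA damage it was lower along with MDM2, PLK2, SESN1 and XPC, 5 in all, against 1 higher, DDB2. The call of SESN1 was lost in 9 of the 10 fits with a library left out, that of DDB2 without contact library 28 or 87 or control library BEEC.104.

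Embryo cells in the harvested RNA would carry their own transcripts, so the embryo markers are set beside these results. Of 28 markers of trophoblast and early embryo, 12 were listed at 0 in every library, among them NANOG, SOX17, EOMES and PAG11. A listed 0 need not mean absent RNA. POU5F1 had a single read in each group, in contact library 97 (3.36, as the library is shallow) and in control library BEEC.103 (0.783). GATA3 was at 0.903 to 3.26 in control and 0 to 4.39 in contact. Together the 28 markers held 0.0458% to 0.0505% of control reads and 0.0418% to 0.0495% of contact reads. Nearly all of that sum comes from the 6 markers that passed the filter. Since cells without embryos held as much of it, the sum cannot gauge a small part of embryo RNA. Of the 6 that passed the filter, TFAP2A, a factor also found in epithelia, was lower (-0.29), and the call was lost without contact library 28 or 97 or control library 83. The part of embryo RNA in the results was not tested. The 18 markers of leukocytes and red cells held 0.00253% ± 0.00122 of control reads and 0.00181% ± 0.00115 of contact reads (SD, n = 5 each), and libraries 83, 84 and 87 stood apart at 0.00383% to 0.00391%. PTPRC, which defines leukocytes, did not exceed 0.969. Of the tested markers of other cell types, CD14 (-0.52) and the smooth muscle gene TAGLN (-0.42) were lower. The TAGLN call was lost without any 1 contact library or control library 24, 83 or 84 (adjusted p up to 0.134) and without both shallow libraries (0.119). No cumulus or granulosa marker was called by limma, edgeR or DESeq2 (1 lower at an unadjusted p under 0.05).

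Sterol synthesis rose modestly. Of 24 genes of cholesterol synthesis and uptake 15 were higher, none was lower by limma, edgeR or DESeq2 (1 at an unadjusted p under 0.05), and the median was 0.30. HMGCS1, an early enzyme, went from 568, 631, 649, 654 and 619.8 to 1089.8, 951, 991, 779 and 847 (0.57 ± 0.09, adjusted p = 0.000125). All contact libraries lay above all controls. The number of higher genes was 9 without contact library 28 or without contact library 97. In fatty acid synthesis and storage 5 of 21 genes rose, led by the fatty acid carrier CD36 (0.93) and DGAT2 (0.90), which completes triglycerides. The count was 3 without the shallow libraries, and 7.17% of all genes tested were higher. CPT1A, the gate of fatty acid burning, had -0.36, a call lost without contact library 28, 87 or 97, without control library 24 or BEEC.104, and without both shallow libraries. CH25H, whose product inhibits sterol synthesis and viral entry and which interferon induces in the mouse, was lower, at 18.7, 25.2, 20.5, 11 and 24.4 in control and 4.02, 8.65, 0, 3.66 and 4.72 in contact (-2.27 ± 0.52, adjusted p = 0.00616). It belongs to no list and was picked after its values were seen.

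Several inflammatory genes were lower. Of 9 chemokines tested 4 fell and 1, CXCL9, rose by 0.35. The CXCL9 call was lost without contact library 28, 87 or 97 or control library 24, 83, 84 or BEEC.103. CXCL8 (interleukin 8), which attracts neutrophils, went from 152, 114, 144, 149.5 and 144 to 43.4, 42.4, 40.3, 90.8 and 63.7 (-1.38 ± 0.18, adjusted p = 1.19e-05), and levels with morulae in the insert were 108 to 147. CXCL5, with the same receptor, fell from 1752 to 3131 down to 747 to 1443 (-1.11 ± 0.17), GRO1 (-0.98) and CXCL3 (-0.66) likewise.

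Within the NF-kB list of 22 genes 4 were lower, TNFAIP3 (-0.92), VCAM1 (-0.91), ICAM1 (-0.50) and TNIP1 (-0.47). That is 18.2% of the list, against 5.78% lower over all genes tested. None was higher by limma, edgeR or DESeq2 or at an unadjusted p under 0.05. The count of lower genes was 2 without contact library 97, 107 or 108, without control library 24, 83 or 84 and without both shallow libraries, and 8 with a block for the run. VCAM1, an adhesion molecule for leukocytes, went from 102, 122, 141, 95.5 and 74.1 to 30.5, 56.2, 70.6, 73.2 and 56.6. Among 12 cytokines and acute phase genes TNFSF10 was higher and SAA3 and CSF1 lower. The CSF1 call (-0.43) was lost without contact library 87, 97, 107 or 108 or control library 24, 83 or 84 (adjusted p up to 0.102), and the lower count was 0 without both shallow libraries. SAA3, an acute phase protein, fell by 1.44 on the log2 scale, with an adjusted p of 0.0829 without libraries 97 and 108. LCN2, another, was uneven among the controls, at 0.969 to 5.7 in control libraries 24, 83 and 84 and 46.2 and 57.8 in BEEC.103 and BEEC.104, and did not pass the test (adjusted p = 0.258).

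Complement was mixed. C4A rose from 1918, 1565, 1425, 1755 and 1735 to 5556, 4024, 3693, 3777 and 4156 (1.33 ± 0.14, adjusted p = 1.4e-06), and C2 and CD55, the latter a shield against complement, by 0.53 and 0.51. MASP1 had 0.63, a call lost in 7 of the 10 fits with a library left out. C3, the central component, held 2.79% to 3.29% of all control reads and 1.99% to 2.67% of contact reads. Its log2 fold change of -0.37 passed the test (adjusted p = 0.0251), but not without contact library 87 or 97 or control library 24, where it reached 0.0825.

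Of 47 matrix genes 10 were lower and 1, the plasminogen activator PLAT (0.37), higher, with a list median of -0.13. Over all genes tested 5.78% were lower and 7.17% higher. Most large decreases lay elsewhere, as 38 of the 46 genes that fell more than 2-fold belong to no list. CEMIP, which breaks down hyaluronan, went from 23287, 22302, 22134, 18104 and 17328 to 5718, 5090.0, 6335, 6751 and 6752 (-1.75 ± 0.13, adjusted p = 2.45e-09). ADAMTS1, a protease of proteoglycans, fell from 2979.5 to 4164 down to 1315 to 1733 (-1.24 ± 0.11).

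Collagens I, III and IV did not pass. The number of lower matrix genes was 5 without contact library 87 or 97 or control library 24, 6 without control library 83, and 4 without 97 and 108. LTBP2, a matrix protein of the latent TGF-beta binding family, was one of the most abundant transcripts to fall, from 109656, 109164, 114417, 60458 and 55594 to 35931, 33526, 39919.5, 34457 and 36391 (-1.25 ± 0.23, adjusted p = 0.00196). Control libraries BEEC.103 and BEEC.104 lay well below the other controls there, but all contact libraries lay lower still. FAP, a surface protease of activated fibroblasts, fell by 0.61 while the stromal marker LUM rose by 0.42. Among the 26 TGF-beta genes these changes were not general, with only LTBP2 lower and BMP7 (0.28) higher. In all, 7.69% of that list was called, against 7.17% higher and 5.78% lower over all genes tested. BMP7 lost its call in 4 of the 10 fits with a library left out.

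Mitochondrially encoded genes, which supply core subunits of the respiratory chain, were lower. Of 13 mitochondrially encoded genes 12 passed the test, with a median log2 fold change of -0.66, and none of 66 nuclear genes of the respiratory chain was called by limma, edgeR or DESeq2 (4 higher and 4 lower at an unadjusted p under 0.05) and their median was 0.01. CYTB, a subunit of complex III, went from 95026, 90216, 88346, 65243 and 66273 to 44050.0, 43960.5, 40612, 40970.2 and 45761 (-0.89 ± 0.12, adjusted p = 2.53e-05). ND4 and ND3, of complex I, both had -0.88, while COX1 had -0.32 (adjusted p = 0.0426, up to 0.107 with a library left out) and ND2 -0.40 (0.0647).

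The mitochondrial share of reads was 9.71% ± 1.09 in control and 7.02% ± 0.395 in contact (SD, n = 5 each; exact two-sided permutation test, p = 0.00794, also 0.00794 adjusted). This list, too, was chosen with earlier results of these data known. The share differed by -3.35, -3.04 and -1.58 percentage points within the 3 runs. Control libraries BEEC.103 and BEEC.104 held 8.41% and 8.65%, the other controls 10.25% to 10.69%. Of 75 cytosolic ribosomal protein genes 5 were lower (6.67%, near the 5.78% of all genes tested), led by RPS4X (-0.38), and the list's median was -0.07. That count was 1 without control library 83 or without both shallow libraries, 2 without contact library 107 or control library 24 or 84, and 3 without contact library 97 or 108.

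**Figure D5:**
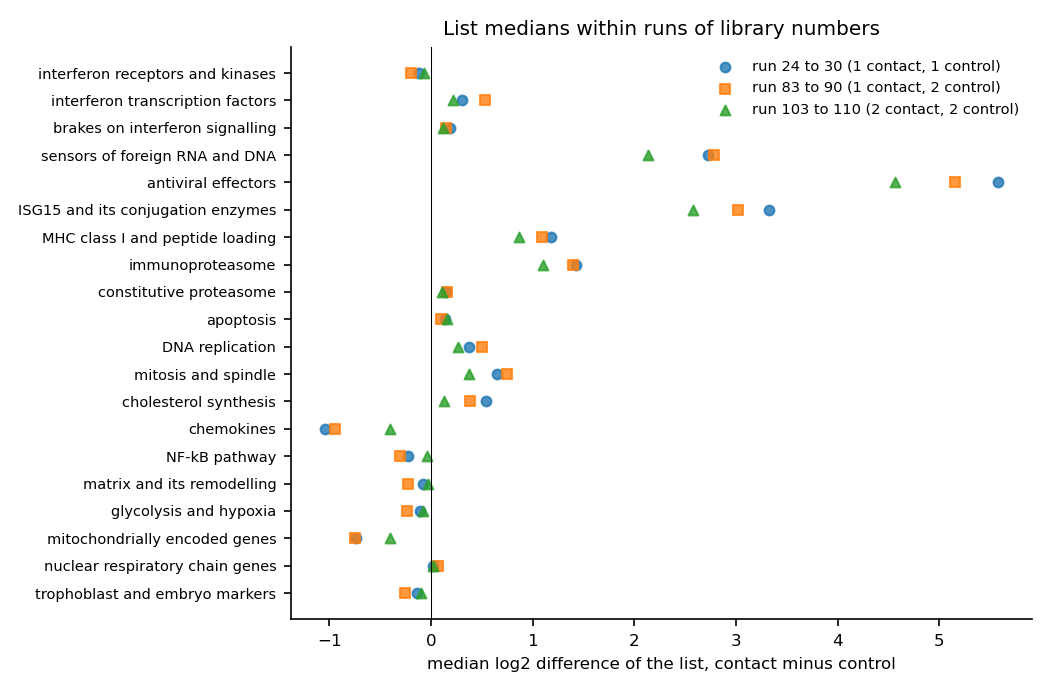
Median log2 difference of contact minus control (horizontal axis) for 20 gene lists, computed separately in 3 runs of library numbers (symbols; the legend gives the libraries in each). The antiviral effectors lie at 5.58, 5.15 and 4.57, and the lists of sensors, mitosis genes, chemokines and mitochondrially encoded genes keep their sign in all 3 runs.

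In the glycolysis and hypoxia list 8 of 38 genes were lower and 1 higher, while 5.78% of all genes tested were lower and 7.17% higher. PDK2, which restrains pyruvate entry into mitochondria, went from 508, 534, 548, 516 and 604 to 315, 305, 299, 331 and 335 (-0.77 ± 0.07, adjusted p = 2.64e-08). DDIT4, an inhibitor of mTOR, and EPAS1, a hypoxia factor, fell by 0.85 and 0.60 on the log2 scale, while SLC2A1, the glucose transporter, rose by 0.51, from 364 to 398 up to 441 to 628. Without libraries 97 and 108 the lower genes numbered 4. The higher genes numbered 3 without contact library 107 and by DESeq2, and 2 without contact library 108 and with a block for the run. The stress response list had 13.0% of its genes called, against 7.17% higher and 5.78% lower over all genes tested. Of its 23 genes only NUPR1 rose (0.80), and VLDLR and HERPUD1 fell by 0.87 and 0.29. That lower count was 1 without contact library 97 or control library 24, 83 or 84, and 0 without 97 and 108.

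The lists tied to uterine function had median log2 fold changes of -0.03 (receptivity), -0.04 (prostaglandin), 0.01 (junction) and -0.15 (Notch and ephrin). The median over all genes tested was -0.01. In that order, the lists had 7.89%, 16.7%, 15.6% and 22.2% of their genes called higher or lower. Of all genes tested, 7.17% were higher and 5.78% lower. Only the receptivity share lay below the sum of those background shares. In the receptivity and secretion list 2 of 38 genes were higher, WNT5A (0.33) and CTSL (0.39), and 1 lower, the glucose transporter SLC5A1 (-1.27, from 16.4 to 26.2 down to 3.36 to 23.6). The calls of CTSL and SLC5A1 were lost in 8 and 6 of the 10 fits with a library left out, and that of WNT5A without both shallow libraries (adjusted p = 0.0649). Among 18 prostaglandin genes TBXAS1, thromboxane synthase, rose from 7.33, 3.87, 2.57, 1.57 and 1.81 to 27.3, 43.2, 33.6, 36.6 and 25.9 (3.07 ± 0.34, adjusted p = 8.76e-07). PTGS2, the inducible cyclooxygenase, was at 789.9 to 1381 in control and 747 to 1374 in contact and did not pass (adjusted p = 0.868). PTGS1 and the prostacyclin receptor PTGIR had 0.46 and -0.72, with calls lost in 5 and 6 of the 10 fits. Of 32 junction and adhesion genes DSC2 and ITGA5 fell by 0.43 and 0.37, and GJA1, DSP and F11R rose by 0.34 to 0.23. The higher count in that list was 0 without control library 24 or 83, and 1 without contact library 28, 87 or 97, without control library 84 or without 97 and 108. Of 27 Notch and ephrin genes HES4, NOTCH3 (0.55) and EPHB6 (0.27) rose, and EFNA1 (-0.38), EPHB3 (-0.34) and EFNB1 (-0.27) fell. The higher count was 1 without contact library 28 or 87 or control library 83, 84 or BEEC.103.

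Large changes also occurred outside the lists: 95 of the 175 genes that rose more than 2-fold belong to none, and 28 of the 175 have no symbol. ADAR, FOXS1, KIF5C and ATP8B4 were chosen after their values were seen. ADAR, the enzyme that edits adenosine in double-stranded RNA, rose from 809, 874, 837, 851 and 913 to 5119.6, 4145, 4308, 4386 and 4278 (2.37 ± 0.09). FOXS1, a forkhead factor, went from 28.5, 35.8, 29.9, 25.8 and 22.6 to 920.2, 959, 709, 617 and 589.6 (4.67 ± 0.18). KIF5C, a kinesin known mainly from neurons, went from 1.63, 0.969, 0.855, 0 and 0 to 169, 95.1, 73.9, 49.8 and 63.7 (5.73 ± 0.39), above the 4.06 to 16.7 seen with morulae in the insert. ATP8B4, a lipid flippase, rose by 3.81. Downward, TMEM107, a protein of the ciliary base, showed the largest fold among genes with a mean of at least 50, from 79.8, 94.9, 89.8, 90.8 and 83.1 to 24.9, 22.5, 16.8, 22 and 11.8 (-2.15 ± 0.19). Its level was 24.6 to 41.5 with morulae in the insert. The retinoic acid genes DHRS3, which reduces retinal, and RARB, a receptor, fell by 1.02 and 1.01. The muscle proteins XIRP1 and MYBPH fell by 1.62 and 1.46, and SFRP5, a secreted inhibitor of Wnt ligands, by 1.17.

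Many of the strongest genes are neighbours. In the gene order of RefSeq assembly ARS-UCD2.0, 138 of the 175 genes that rose more than 2-fold could be placed among 11624 tested genes, and 46 of them (33.3%) stood next to another one, in 18 groups. Of all tested genes placed, 2.24% stood next to a gene that rose more than 2-fold. Several groups are known families, such as MX2 and MX1, OAS2 with OAS1Y and OAS1X, or IFIT2, IFIT3 and IFIT5. Others join a known target to a gene of another kind. TMPRSS2, a membrane protease, follows MX1 and went from a single read over all control libraries to 63.8 to 135. HES4, a Notch-related repressor, lies next to ISG15, with 2 control reads in all and 6.59 to 31.3 in contact. The ratio of contact to control was 593 (exact 95% interval 106 to 23490, counting error only) for TMPRSS2 and 55.7 (15 to 467) for HES4. PARP12 lies between TBXAS1 and the histone demethylase KDM7A, which rose by 1.71, and GRINA adjoins PARP10.

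OGN, OMD and ASPN, neighbouring genes for small leucine-rich proteoglycans, rose by 1.29, 1.61 and 1.61 and form a group with no known antiviral member. OMD went from 99.3, 152, 142, 212 and 247 to 493, 545, 716, 409 and 384 (adjusted p = 0.000537). Without the shallow libraries ASPN no longer passed (adjusted p = 0.107). RefSeq gene spans overlap in 2 of the 28 adjacent pairs, and the strand setting of the counting is not given in the sources used here, so that reads passing from a gene into the next were not tested. Among the 45 placed genes that fell more than 2-fold, only 2 were neighbours.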

How the data were processed

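The deposited signal values are gene read counts that the authors had divided by 1 size factor per library: dividing each value by that of 1 read in its library gave whole reads for 100% of values in all 15 libraries (tolerance 0.01 read). Per the submitters' processing notes FastQC 0.71, HISAT2 2.1.0, featureCounts 1.6.2 and DESeq2 1.18.1 were used, with no role given. Genome build, annotation and strand setting: not given in the sources used here.

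Genes with a value of at least 10 in at least 5 libraries were tested with limma 3.58.1 (R 4.3.3) on log2(value + 1), with trend and robust variance, 1 coefficient per group over all 15 libraries and Benjamini-Hochberg adjustment over 12559 genes. Fold changes on that scale understate those of low genes. Since the values are scaled and not raw counts, edgeR 4.0.16 and DESeq2 1.42.0 were run on recovered reads as alternatives. Shares of reads were compared by exact permutation. Intervals cover counting error only.

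Symbols came from the table for 16378 genes and from RefSeq ARS-UCD2.0 for 877, and 2739 had none. The comparison, the 42 gene lists and the tests were chosen with earlier results of these data known. Genes named by rule were the 15 with the smallest p and the 15 with the largest fold per direction (mean at least 50), up to 4 per list, and a panel, 193 in all. Other list members, and CH25H, ADAR, FOXS1, KIF5C, ATP8B4, TMPRSS2 and the gene neighbours, are named after their values were seen. Runs of library numbers come from the titles and are not labelled as batches. Contact library 97 has no control in its run. Some genes are not reported here.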

Additional observations from a re-analysis of the deposited data

Results flagged for a closer look

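Among 390 groups of 5 libraries (193 named genes and 2 shares, in control and in contact), 26 held a library far from the other 4 by Dixon's criterion, and chance alone sets apart about 1 in 20 such groups. Contact library 28 was the outlying library in 10 of the 26, in each case at the top. It stood at 20072 for IFIT1 (others 15092 to 15502), 1935 for STAT2, 2841 for SAMD9, 8377 for DDX58, 5468 for PARP14, 1393 for GBP1, 5556 for C4A, 656.6 for FADS2, 2334 for PLAT and 1698 for CDH1. Contact library 107 was highest for IFNT (89.33), MYBPH (98.84, others 50.2 to 61.3) and HSD3B1 (44.66). Contact library 97 was highest for CDKN2D (60.49) and lowest for BMP7 (1247), and contact library 87 was highest for ND4L (6313). For CD68, a macrophage gene, contact library 87 stood at 460.9 against 80.4 to 94.1 in the other contact libraries, and control libraries 83 and 84 of the same run stood at 437 and 449.8 against 85.8 to 109.9 in the other controls.

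On the control side, library 24 was outlying for C3 (499282), NUPR1 (4023) and PTGS2 (789.9, others 1260.5 to 1381), library 83 for CXCL8 (114.3) and TNFSF10 (19.37), and library 84 for PSMB8 (321.5) and MCM10 (213.8). Control library BEEC.103 was low for OAS1X (37.58, others 51.3 to 56) and control library BEEC.104 high for IFI44L (71.37). None of these separations was tested further.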

How the results depend on the processing

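Over 22 other settings the higher genes numbered 624 to 1174 and the lower genes 420 to 1046. Leaving out 1 library gave 687 to 908 higher and 473 to 715 lower genes, the lowest number of lower genes being without control library 83, and 606 and 397 genes kept their call in all 10 such fits. Without the shallow contact libraries 97 and 108 there were 624 higher and 420 lower genes, of which 598 and 390 were called in the main comparison. edgeR on recovered reads gave 925 and 691, and a block for the run of library numbers gave 1069 and 963. No named gene reversed, and 123 of the 150 called ones kept their call under every setting. The 2 shares of reads kept direction and side of the threshold under the 12 settings run for them (another denominator, no shallow libraries, and each library left out), at 1.35 to 1.53 percentage points for interferon-stimulated genes and -3.10 to -2.44 for mitochondrially encoded genes. Counts in lists moved more: 43 of 84 stayed within 1.5 times in every setting. No paired analysis was possible because the groups share no replicate numbers, and libraries could be matched only by run, as in the block above. Depth limits the low genes in libraries 97 and 108, where 1 read weighs more. The cause of each change was not tested.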
